A study of Mus musculus with 20 samples.

Results

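The 9 genes described here encode receptors for acetylcholine and noradrenaline: the 5 muscarinic receptors Chrm1, Chrm2, Chrm3, Chrm4 and Chrm5, the 3 alpha-2 adrenergic receptors Adra2a, Adra2b and Adra2c, and the beta-1 adrenergic receptor Adrb1. They were named as a list of receptors, with no threshold on a measured value, and found by Ensembl identifier among the 37620 genes of the table. All 9 had a value in at least some libraries. RNA was sequenced from cells of the dorsal root ganglia (DRG), sorted to enrich Trpv1 sensory neurons. The adult mice, 6 to 8 weeks old, were homozygous for Trpv1tm2Bbm. This allele puts a placental alkaline phosphatase and nuclear LacZ reporter under the Trpv1 gene. All groups carried this allele. Dissociated cells were incubated with a substrate that beta-galactosidase turns into the fluorescent DDAO, and only the brightest DDAO-positive cells were collected, so that less bright Trpv1 neurons were not sampled. Ganglia came from lumbar L4 and L5, or from L6 and S1 (called sacral here), which gave 20 libraries in 4 groups of 5, male or female and lumbar or sacral. The 10 donors are called M1 to M5 (male) and F1 to F5 (female) below, and each gave 1 lumbar and 1 sacral library. Each donor label carries 2 animal numbers, so that a donor may be a pool of animals.

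Muscarinic receptors fall into a group that couples to Gq and phospholipase C (Chrm1, Chrm3 and Chrm5) and a group that couples to the inhibitory Gi/o proteins (Chrm2 and Chrm4). The alpha-2 adrenergic receptors also couple to Gi/o, which lowers cyclic AMP, opens G protein gated potassium channels and closes calcium channels at nerve terminals, while Adrb1 couples to Gs and raises cyclic AMP. In sensory neurons the Gi/o-coupled receptors are known for restraining transmitter release, and alpha-2 receptors are the target of clonidine.

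In the sorted cells, transcripts of Chrm2 and Adra2c were the most abundant of the 9, and those of the Gq-coupled muscarinic receptors and of Adra2b had the lowest mean levels. Glial markers were also abundant in these libraries, as given below, so the cell type behind each receptor value is not shown. Chrm2, Chrm4 and Adra2a were upregulated in sacral DRG, by 1.01 to 1.28 on the log2 scale, Chrm4 and Adra2a having entered the test through their sacral groups only. Of all tested genes 30.3% were called higher in sacral DRG, so that a call alone does not set a gene apart. With the mean of glial markers as a covariate none of these receptor genes was called. Relative to markers of Trpv1 neurons only Chrm2 was. Adra2c and Adrb1 did not pass the test, and Chrm1, Chrm3, Chrm5 and Adra2b were below the filter for the test. None of the members was called higher in lumbar DRG or different between the sexes.

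The stretches before the start sites of the 3 genes that were called, and of Adra2c as the abundant member that was not, are shown to set the sequence of the called members beside that of an abundant member of the same class. The direction of Chrm4 and Adra2a was fixed by how they entered the test, so no shared direction is read from them. Each is the 250 bases ahead of the start site in RefSeq (GRCm38.p6, a later build than that of the expression table), read 5′ to 3′ on the gene's strand, and capitals mark the letters GGGCGG of a GC box on either strand. Chrm2 lies on the plus strand at chr6:36387834-36388083, Chrm4 on the plus strand at chr2:91921939-91922188, Adra2a on the plus strand at chr19:54045009-54045258 and Adra2c on the plus strand at chr5:35278316-35278565.
Chrm2: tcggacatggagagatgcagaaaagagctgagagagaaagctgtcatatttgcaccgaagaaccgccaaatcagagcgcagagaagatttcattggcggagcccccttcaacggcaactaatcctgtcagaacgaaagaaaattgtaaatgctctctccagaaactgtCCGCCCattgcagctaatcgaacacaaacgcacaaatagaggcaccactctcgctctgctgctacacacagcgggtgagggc
Chrm4: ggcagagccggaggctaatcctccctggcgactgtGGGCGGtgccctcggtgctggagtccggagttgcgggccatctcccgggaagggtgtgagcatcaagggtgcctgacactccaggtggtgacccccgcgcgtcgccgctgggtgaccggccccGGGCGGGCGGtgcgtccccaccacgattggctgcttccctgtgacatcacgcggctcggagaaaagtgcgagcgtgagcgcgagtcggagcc
Adra2a: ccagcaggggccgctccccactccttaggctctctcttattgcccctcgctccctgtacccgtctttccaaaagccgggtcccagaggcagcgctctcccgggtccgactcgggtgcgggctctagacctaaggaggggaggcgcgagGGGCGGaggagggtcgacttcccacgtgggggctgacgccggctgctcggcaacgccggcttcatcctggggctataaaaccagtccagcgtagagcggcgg
Adra2c: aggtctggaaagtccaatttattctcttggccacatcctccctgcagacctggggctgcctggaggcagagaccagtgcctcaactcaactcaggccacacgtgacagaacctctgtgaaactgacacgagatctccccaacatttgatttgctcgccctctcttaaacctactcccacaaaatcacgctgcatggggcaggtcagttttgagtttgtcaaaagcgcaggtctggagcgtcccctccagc

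The GC box letters occurred once in the Chrm2 stretch, 3 times in that of Chrm4, where 2 of the matches overlap, once in that of Adra2a and 0 times in that of Adra2c. Of the other members not called, Adra2b held 2, Adrb1 held 1, and Chrm3 and Chrm5 held 0. These letters therefore do not separate called members from the others. Across all 32851 RefSeq promoters of the same length, 32.7% held these letters on 1 strand or the other. The dinucleotide CG, which is dense in CpG islands, occurred 12 times in the stretch of Chrm2, 26 times in that of Chrm4, 22 times in that of Adra2a and 6 times in that of Adra2c, against a median of 6 over all promoters. It occurred 23 times in the stretch of Adra2b, 24 in that of Adrb1, 10 in that of Chrm3 and 2 in that of Chrm5, none of them called. The letters TATAAA stood 29 bases ahead of the start site of Adra2a and in none of the other 3 stretches shown, and 12.4% of all promoters held them. The cyclic AMP response element TGACGTCA was in none of the 4 shown, and 1.55% of all promoters held it.

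In the annotation of the expression table (mm9, NCBIM37) Chrm2 spans chr6:36338084-36478414 with 4 exons, Chrm4 spans chr2:91762346-91769986 with 2 exons, and Adra2a, at chr19:54119672-54123472, Adra2c, at chr5:35621215-35624410, and Adrb1, at chr19:56796862-56799352, are single-exon genes, all on the plus strand. Values are reads over these exons.

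The members are related in sequence, which bears on how reads are assigned to them. Between the coding sequences of Chrm2 (1401 bases) and Chrm4 (1440 bases) identity was 68.1% of the shorter one. The longest unbroken stretch shared by any pair of the 9 genes was 29 bases, between Chrm1 and Chrm4, and the longest between alpha-2 genes was 26 bases, between Adra2a and Adra2c. These shared stretches, from the coding sequences annotated on the same build, are the following.
Chrm1 and Chrm4: ctgctggccttcatcctcacctggacacc
Adra2a and Adra2c: gagtacaacctgaagcgcacgccgcg
Chrm2 and Chrm4: atcaaccctgcctgctatgcact
The study kept reads that mapped to 1 place. Overlapping genes are a separate limit, because no source used here says that reads were counted by strand. Exons of Chrm2 share 142 bases with the opposite-strand RNA 9330158H04Rik, which had 4 to 68 reads per library, and exons of Chrm4 share 25 bases with Mdk on the opposite strand, which had 49 to 270 reads.

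Levels between genes are compared here as RPKM, reads per kilobase of exon scaled to library size, with an empty value taken as 0. Over the 20 libraries the order by mean RPKM was Chrm2 (2.37 ± 1.10, SD, n = 20), Adra2c (1.57 ± 0.522), Chrm4 (0.590 ± 0.345), Adra2a (0.520 ± 0.305), Adrb1 (0.394 ± 0.204), Chrm3 (0.169 ± 0.151), Chrm1 (0.106 ± 0.0628), Adra2b (0.0675 ± 0.0887) and Chrm5 (0.0387 ± 0.0718). Adra2c was above Chrm4 in 20 of 20 libraries, which split the 2 abundant genes from the rest. Chrm2 was above Adra2c in 10 of 10 sacral but only 6 of 10 lumbar libraries, so that their order rests mostly on the sacral level. Adrb1 was above Chrm3 in 16 of 20 libraries. The other neighbours were not separated beyond their spread: Chrm4 exceeded Adra2a in 13 libraries, Adra2a exceeded Adrb1 in 12, Chrm3 exceeded Chrm1 in 13, Chrm1 exceeded Adra2b in 14, and Adra2b exceeded Chrm5 in 10.

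**Figure D1:**
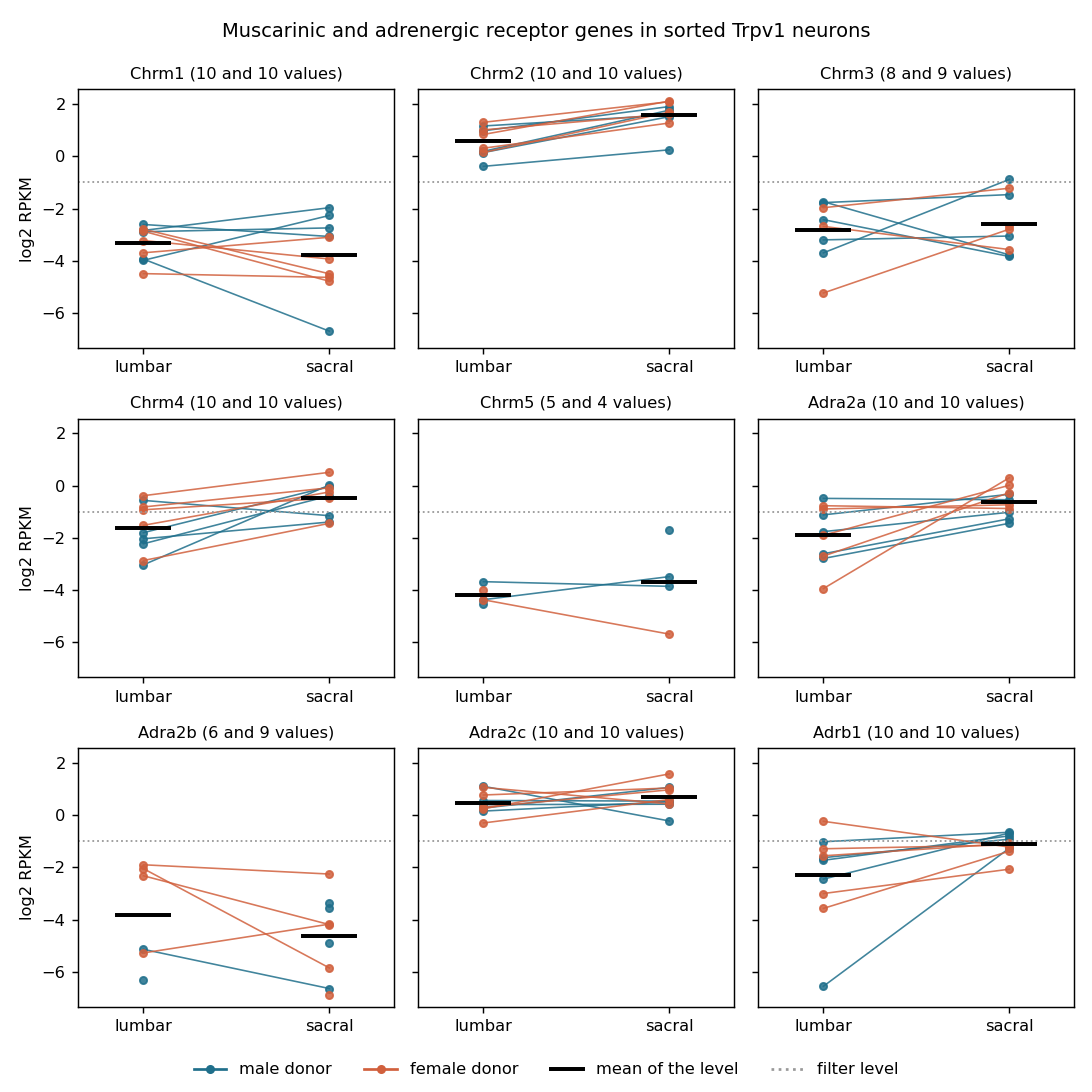
Deposited log2 RPKM (vertical axis) of the 9 receptor genes in lumbar and sacral libraries, with a line joining the libraries of each donor, blue for male and orange for female donors, and a black bar at each level's mean. Every Chrm2 line rises from lumbar to sacral, most lines of Chrm4, Adra2a and Adrb1 rise, those of Adra2c cross, and points missing from Chrm3, Chrm5 and Adra2b are empty values; the dotted line at -1 is the filter for testing.

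Chrm2 encodes the M2 receptor, which is known as the muscarinic brake of the heart and as an autoreceptor on cholinergic terminals. Its log2 RPKM ranged from -0.38 to 1.30 in lumbar libraries, with a median of 0.57, and from 0.25 to 2.11 in sacral libraries, with a median of 1.66. The groups overlapped, but 8 of the 10 sacral libraries lay above the highest lumbar one, and the low sacral value of 0.25 was that of donor M2, whose lumbar value of -0.38 was also the lowest of its level. Behind these values stood 185 to 881 reads per lumbar library and 415 to 1515 per sacral library. Within donors the sacral value was the higher in 10 of 10, by 0.42 in M1 and 0.61 in F5 and by as much as 1.55 in F3 and 1.57 in M5.

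The fitted change of Chrm2, lumbar minus sacral, was -1.01 on the log2 scale (SE 0.20; limma, adjusted p = 0.00036), that is 2.02-fold higher in sacral DRG, with a 95% interval from -1.42 to -0.60. Leaving out any 1 donor gave -1.08 to -0.94, past the threshold each time. Female means were 0.72 ± 0.48 and 1.76 ± 0.35 (SD, n = 5) in lumbar and sacral DRG and male means 0.42 ± 0.64 and 1.40 ± 0.66. In the same test 45.6% of the 16304 genes tested were called between the levels, 30.3% as higher in sacral DRG and 15.3% as higher in lumbar DRG, so that a call alone does not set a gene apart. The median change over all tested genes was -0.11.

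Chrm4 encodes the M4 receptor, the other Gi/o-coupled muscarinic receptor, known from striatal neurons. Its log2 RPKM ran from -3.03 to -0.38 in lumbar libraries (median -1.66) and from -1.44 to 0.51 in sacral libraries (median -0.31), on 16 to 93 and 61 to 227 reads. The levels overlapped, with 5 sacral libraries above every lumbar one and 6 lumbar libraries below every sacral one. In 9 of 10 donors the sacral value was the higher, most in M4, where 16 lumbar reads stood against 180 sacral reads, and in M1 the lumbar value was the higher by 0.59.

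The change of Chrm4 was -1.15 (SE 0.33; limma, adjusted p = 0.0070), or 2.22-fold. Without 1 donor at a time it lay between -1.39 and -0.93 and stayed past the threshold. Chrm4 entered the test through its sacral groups only, so these fits are no support for its direction. Without the filter, where entry does not rest on the sacral values, its change was also -1.15 (limma, adjusted p = 0.0094). In the females alone it was -0.95 and did not pass (limma, adjusted p = 0.12). On values with a pseudocount of 1 RPKM, which compresses the changes of low genes, it was -0.36 and passed (limma, adjusted p = 0.0077). Among the 5 tested members Chrm4 was the one most like Chrm2 across the 20 libraries, with a Pearson r of 0.76, as a description over libraries that share their level and cell make-up.

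Adra2a encodes the alpha-2A receptor, the main presynaptic autoreceptor of noradrenergic neurons. In lumbar libraries its log2 RPKM was between -3.94 and -0.48 (median -1.82) and in sacral libraries between -1.44 and 0.31 (median -0.63), on 9 to 132 and 81 to 229 reads. Lumbar values were scattered (SD 1.11) and sacral values closer together (SD 0.56), and the levels overlapped, with 4 sacral libraries above every lumbar one. The sacral value was the higher in 8 of 10 donors, and the difference was widest in F4, with 9 lumbar and 229 sacral reads, while in M3 and F2 the levels differed by 0.05 and 0.11 in the other direction.

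Its change was -1.28 (SE 0.37; limma, adjusted p = 0.0072), or 2.43-fold, with a 95% interval from -2.04 to -0.52. Without F4 or any other 1 donor it lay between -1.51 and -0.97, past the threshold each time. As for Chrm4, entry through the sacral groups only means that these fits do not support its direction. Fitted without the filter, its change was again -1.28 (limma, adjusted p = 0.0089). In males alone the change was -0.83 and did not pass (limma, adjusted p = 0.17). With a pseudocount of 1 RPKM it was -0.34 and passed (limma, adjusted p = 0.0068). The difference between the sexes in this change was itself tested and was not called, as given below.

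Adra2c encodes the alpha-2C receptor, which also limits noradrenaline release. Its log2 RPKM was between -0.30 and 1.10 in lumbar libraries (median 0.35) and between -0.22 and 1.58 in sacral libraries (median 0.57), on 99 to 643 reads. These ranges nearly coincide, with 7 donors higher in sacral and 3 in lumbar DRG. Donors M2 and F5 moved by the same amount in opposite directions, 1.33 toward lumbar and 1.33 toward sacral.

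The change of Adra2c was -0.23 (SE 0.19; limma, adjusted p = 0.32), with a 95% interval from -0.63 to 0.16. The interval allows a sacral excess smaller than the change fitted for Chrm2, and it does not show that the levels were equal. Leaving out 1 donor at a time moved it between -0.40, without M2, and -0.13, without M1 or without F5, and it passed in no case. In males alone the fitted change was 0.04, in the opposite direction, and in females alone it was -0.51 (limma, adjusted p = 0.18).

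Adrb1 encodes the beta-1 receptor, known for speeding the heart. It had 1 to 100 reads in lumbar and 40 to 84 in sacral libraries, and its log2 RPKM ran from -6.55 to -0.24 (median -1.68) and from -2.07 to -0.66 (median -1.11). The lowest lumbar value, in M5, came from 1 read, and the highest, in F3, was above every sacral value. The sacral value was the higher in 9 of 10 donors, F3 being the exception.

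The change of Adrb1 was -1.18 (SE 0.51) and missed the threshold (limma, adjusted p = 0.064). Leaving out 1 donor at a time moved it between -1.37 and -0.75, and it passed without M1 and without F3 (limma, adjusted p = 0.049 each). Without M5, the donor with 1 lumbar read, it was -0.75 (limma, adjusted p = 0.0999). On read counts with TMM scaling it was -0.94 and passed narrowly (voom and limma, adjusted p = 0.047). Scaled by total reads it was -1.37 and passed (voom and limma, adjusted p = 0.0021), and with quantile normalization -1.40, which also passed (limma, adjusted p = 0.040). In males alone it was -1.81 (limma, adjusted p = 0.099) and in females alone -0.55 (limma, adjusted p = 0.51). With a pseudocount of 1 RPKM it was -0.19 (limma, adjusted p = 0.089).

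Chrm4, Adra2a and Adrb1 entered the test through their sacral groups only, since no lumbar group of theirs reached the required mean of -1 log2 RPKM. For Chrm4 and Adra2a both sacral groups reached that mean and no lumbar group did, which fixes the direction. For Adrb1 only the male sacral group did, at -0.86 against -1.38 in the female sacral group, which favours a sacral excess without fixing it. No count or median over the 5 tested members is therefore offered in support. Chrm2 and Adra2c passed the filter in all 4 groups.

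The 4 members below the filter had at most 85 reads in a library. Chrm1, which encodes the M1 receptor of cortex and ganglia, had 11 to 45 reads in lumbar and 4 to 85 in sacral libraries, and the lumbar value was the higher in 6 of 10 donors. Chrm3, the receptor for glandular secretion and smooth muscle contraction, had 0 to 25 and 0 to 61 reads, with more than 3 reads in 7 lumbar and 9 sacral libraries. Chrm5, the M5 receptor known from dopaminergic neurons, was empty in 11 of the 20 libraries and reached 28 reads in 1, the sacral library of M1. Adra2b, the vascular alpha-2B receptor, had a value in 6 lumbar and 9 sacral libraries, with 37, 38 and 39 reads in the lumbar libraries of F1, F3 and F4 and at most 6 in the other lumbar libraries. An empty value is 0 reads, which allows up to 3 reads at this depth, so Chrm3, Chrm5 and Adra2b were near the limit of detection in some libraries and not shown to be absent. Chrm3 and Chrm5 were each counted over 1 exon, of 1949 and 1746 bases. These are little longer than their coding sequences of 1770 and 1599 bases, and any reads outside these exons were not counted. Chrm1 had more than 3 reads in 20 of 20 libraries.

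Fitted without the filter, none of these 4 passed (limma; adjusted p = 0.51 for Chrm1, 0.66 for Chrm3, 0.87 for Chrm5 and 0.74 for Adra2b). Their fitted changes were 0.44 (SE 0.46), -0.35 (SE 0.54), 0.19 (SE 0.69) and 0.38 (SE 0.75). None of the raw p-values was under 0.05, the lowest being 0.36. Fitted on the level alone, Chrm5 turned to -0.43 (SE 0.71) and Adra2b stood at 0.86 (SE 0.77), while Chrm1 and Chrm3 kept their signs. None passed there either (limma, adjusted p from 0.43 to 0.74).

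A share of a receptor family within a library does not depend on scaling between libraries. Chrm2 made up 70.1% ± 9.05 of the summed muscarinic RPKM in lumbar libraries and 72.7% ± 8.96 in sacral libraries (SD, n = 10). Chrm4 made up 16.6% ± 6.58 and 18.2% ± 5.0. The share of Chrm4 was the higher in sacral libraries in 5 donors and in lumbar libraries in 5, and that of Chrm2 in 6 and 4. The summed RPKM of the muscarinic genes was the higher in sacral DRG in 10 of 10 donors, at 4.29 ± 1.13 against 2.25 ± 0.739. Unlike the shares, this sum does depend on scaling between libraries, and most of it is Chrm2, so it adds little to the change of Chrm2. The Gq-coupled Chrm1 held 5.53% ± 3.257 in lumbar and 2.68% ± 2.29 in sacral libraries, the higher in lumbar DRG in 8 donors, as a description with no test.

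Among the alpha-2 genes Adra2c took 77.3% ± 11.1 in lumbar libraries and 69.1% ± 8.15 in sacral libraries. The share of Adra2a was 17.9% ± 10.2 in lumbar and 28.8% ± 7.56 in sacral libraries and was the higher in sacral DRG in 9 of 10 donors. Adra2b held 4.75% ± 7.25 and 2.12% ± 2.10. The alpha-2 sum, which also depends on scaling, was 1.85 ± 0.481 RPKM in lumbar and 2.46 ± 0.756 RPKM in sacral libraries, the higher in sacral DRG in 8 donors.

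**Figure D2:**
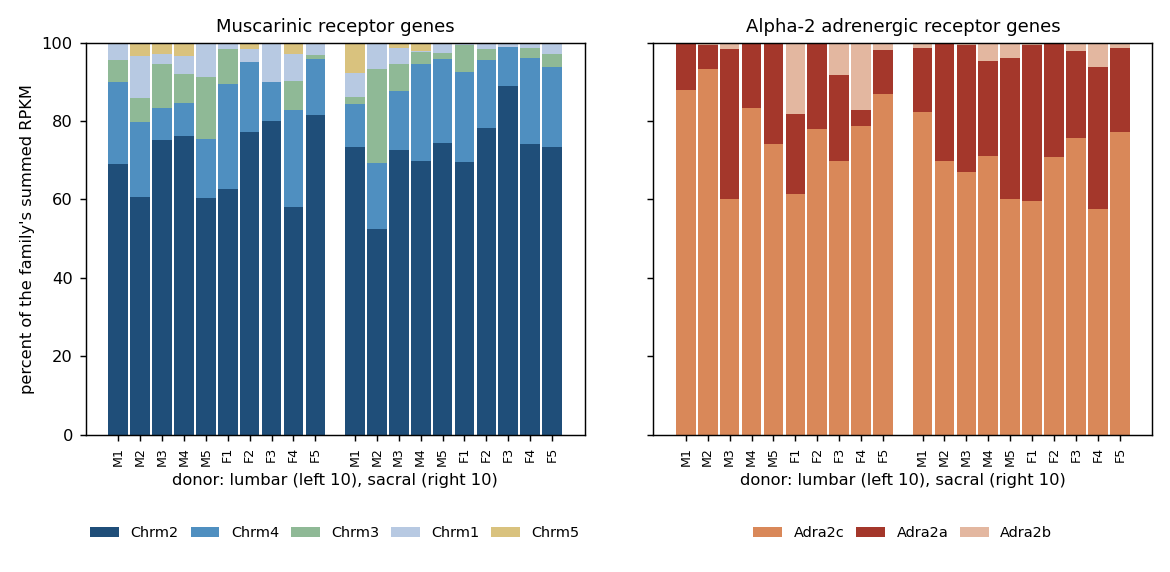
Stacked bars give each gene's percent of the summed RPKM of its receptor family in each library, lumbar libraries of the 10 donors on the left of each panel and sacral libraries on the right. Chrm2 fills between 52.5% and 88.9% of every muscarinic bar, and Adra2a fills more of the alpha-2 bars in sacral libraries (mean 28.8%) than in lumbar ones (mean 17.9%).

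The second question of the design was whether levels or level changes differed between male and female donors. Of the 5 tested members 0 were called between the sexes in lumbar DRG and 0 in sacral DRG, where 0.0427% and 0.0368% of all tested genes were called. Fitted differences, female minus male, ran from -0.29 for Adra2a to 0.74 for Adrb1 in lumbar DRG (limma, adjusted p from 0.65 to 0.93) and from -0.52 for Adrb1 to 0.61 for Adra2a in sacral DRG (limma, adjusted p from 0.69 to 0.93). The difference of the level change between the sexes was called for 0 members (limma, adjusted p = 0.9996 for each), and at 0% of the 16304 tested genes, of which 668 had a raw p under 0.05. For Adra2a that difference was -0.89 (SE 0.73) and for Adrb1 1.26 (SE 1.02), and the standard errors were nearly as large as these differences.

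The libraries also differed in make-up between the levels. Mitochondrial reads took 37.2% to 60.4% of the reads on genes in lumbar libraries and 21.5% to 41.6% in sacral ones. Of 10 glial markers 9 were called higher in lumbar DRG, and their summed RPKM was 1986 to 3969 there and 1228 to 2064 in sacral libraries. Of 10 markers of Trpv1 neurons, Trpv1 and Scn10a among them, 8 were called higher in sacral DRG, their summed RPKM being 2092 to 3076 in lumbar and 2720 to 3558 in sacral libraries. Trpv1 and Scn10a had the widest changes of that list, at -0.96 and -0.94, and the neuropeptide genes Calca, at 0.16 (limma, adjusted p = 0.16) and the higher in lumbar DRG in 8 of 10 donors, and Tac1, at -0.095 (limma, adjusted p = 0.37), were not called. Immune markers were called higher in lumbar DRG in 3 of 5 tested, and vascular markers in 6 of 9 with 1 higher in sacral DRG. The called C1qc and Csf1r had sacral means of -2.74 and -1.31 log2 RPKM, under the required mean of -1. Their lumbar means, -0.64 and -0.20, were over it, which favours a lumbar excess, so their direction is not read. Summed RPKM of the 2 lists was 7.87 to 42.4 and 96.0 to 191 in lumbar libraries against 3.63 to 10.01 and 99.2 to 209 in sacral libraries. The vascular sum was mostly Rgs5, higher in sacral DRG (mean log2 RPKM 6.76 and 7.13). The vascular mean log2 RPKM was the higher in lumbar DRG in 10 of 10 donors. Of 4 tested markers of large neurons 1, Pvalb, was called, higher in lumbar DRG, with summed RPKM of 27.8 to 67.5 in lumbar and 26.4 to 52.9 in sacral libraries. The mean of Pvalb was -0.29 in lumbar and -2.36 in sacral DRG, the latter under the required mean, so its direction is not read either. Of 2 tested markers of sympathetic neurons, Th, which sensory neurons also express, was called higher in sacral DRG and Slc18a2, at 289 to 793 reads, was not called. The list summed to 13.6 to 48.9 RPKM in lumbar and 44.7 to 109 RPKM in sacral libraries, nearly all of it Th. Mean log2 RPKM in lumbar and sacral DRG was 4.80 and 6.19 for Th and 1.19 and 1.23 for Slc18a2. The noradrenergic markers Dbh and Slc6a2 were empty in 10 and 17 of the 20 libraries and had at most 50 and 39 reads. In bulk RNA of sorted cells, fewer cells of a type and less RNA per cell cannot be told apart.

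Chrm2 followed these measures within each level as well as between them. Its Pearson r with the mean log2 RPKM of the 10 Trpv1 neuron markers was 0.93 over the 10 lumbar libraries and 0.58 over the 10 sacral ones, and with the glial mean -0.90 and -0.50. Chrm4 gave 0.67 and 0.45 with the neuron markers and -0.64 and -0.51 with the glial markers. Adra2a gave 0.02 and 0.39 with the neuron markers and -0.07 and -0.57 with the glial markers, in lumbar and sacral libraries. Adra2c gave -0.15 and 0.24 with the neuron markers and 0.45 and -0.30 with the glial markers. Adrb1 ran the other way from Chrm2 in sacral libraries, with 0.15 and -0.42 for the neuron markers and 0.11 and 0.64 for the glial markers. These are descriptions over libraries that share a preparation and a cell make-up.

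Set against the Trpv1 neuron markers of the same library, the change of Chrm2 shrank from -1.01 to -0.46 (limma, SE 0.15, adjusted p = 0.010). On this scale Chrm2 was the higher in sacral DRG in 9 of 10 donors. Relative to the same markers Chrm4 gave -0.60 (SE 0.29; limma, adjusted p = 0.075), Adra2a -0.73 (SE 0.36; limma, adjusted p = 0.080) and Adrb1 -0.63 (SE 0.49; limma, adjusted p = 0.26), and Adra2c turned to 0.32 (SE 0.21; limma, adjusted p = 0.18). This comparison was added after the data had been seen. It moves the change of every gene with a value in all libraries by the same 0.55 toward lumbar DRG. The median of all tested genes then stood at 0.44, with 3.02% called higher in sacral and 62.4% higher in lumbar DRG.

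With the glial mean as a covariate the change of Chrm2 was 0.00 (SE 0.34; limma, adjusted p = 0.9998), that of Chrm4 0.05 (SE 0.61; limma, adjusted p = 0.99) and that of Adra2a -0.72 (SE 0.75; limma, adjusted p = 0.85). That of Adra2c was -0.50 (SE 0.38; limma, adjusted p = 0.76) and that of Adrb1 -1.99 (SE 1.06; limma, adjusted p = 0.62). With the mitochondrial share, a covariate added after the data had been seen, the changes of Chrm2, Chrm4 and Adra2a were 0.13, -0.04 and -0.94. The glial mean was the higher in lumbar DRG in 10 of 10 donors, so that covariate and level largely coincide and the standard errors grew. Only 68 of the 16304 genes were called with the glial covariate and 17 with the mitochondrial one. The part of glial and mitochondrial RNA in the receptor changes cannot be told apart from that of the spinal level.

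**Figure D3:**
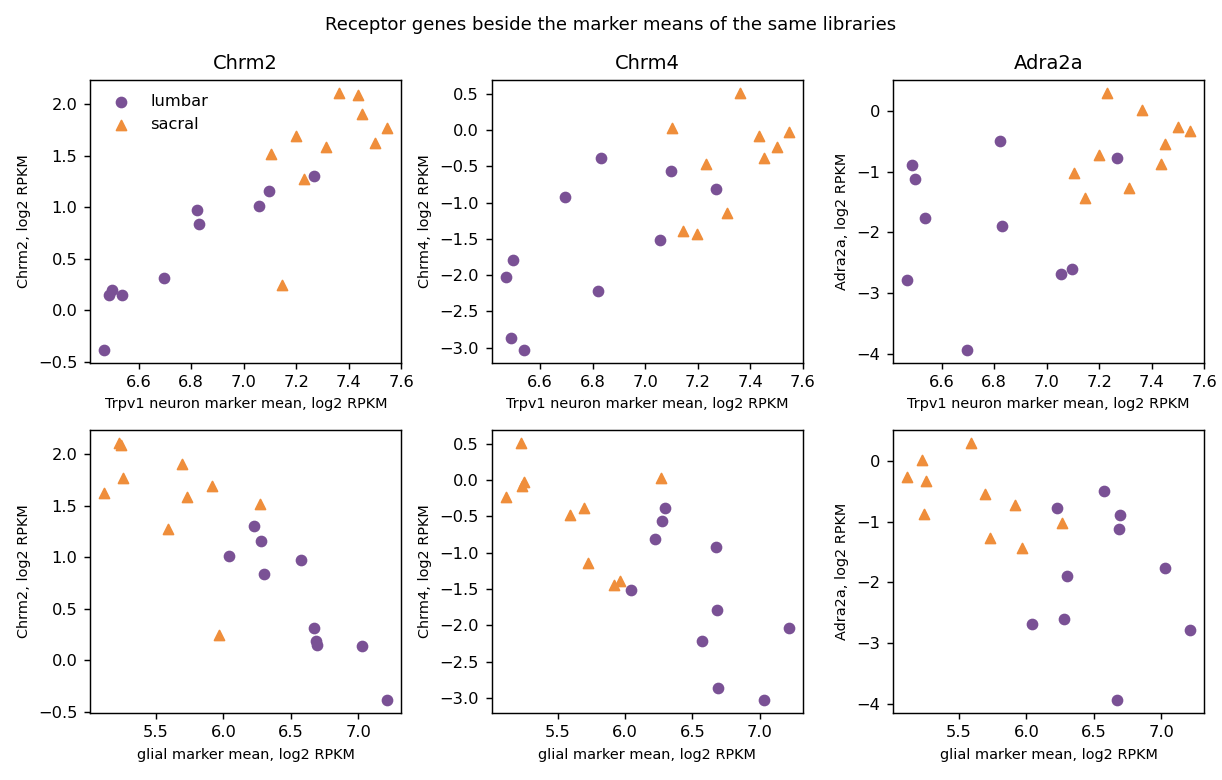
Log2 RPKM of Chrm2, Chrm4 and Adra2a (vertical axes) against the mean log2 RPKM of 10 Trpv1 neuron markers (top) and of 10 glial markers (bottom), with 10 lumbar libraries as circles and 10 sacral libraries as triangles. Chrm2 rises with the neuron markers (r = 0.93 in lumbar libraries) and falls with the glial markers (r = -0.90), while lumbar Adra2a is scattered against both (r = 0.02 and -0.07).

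**Figure D4:**
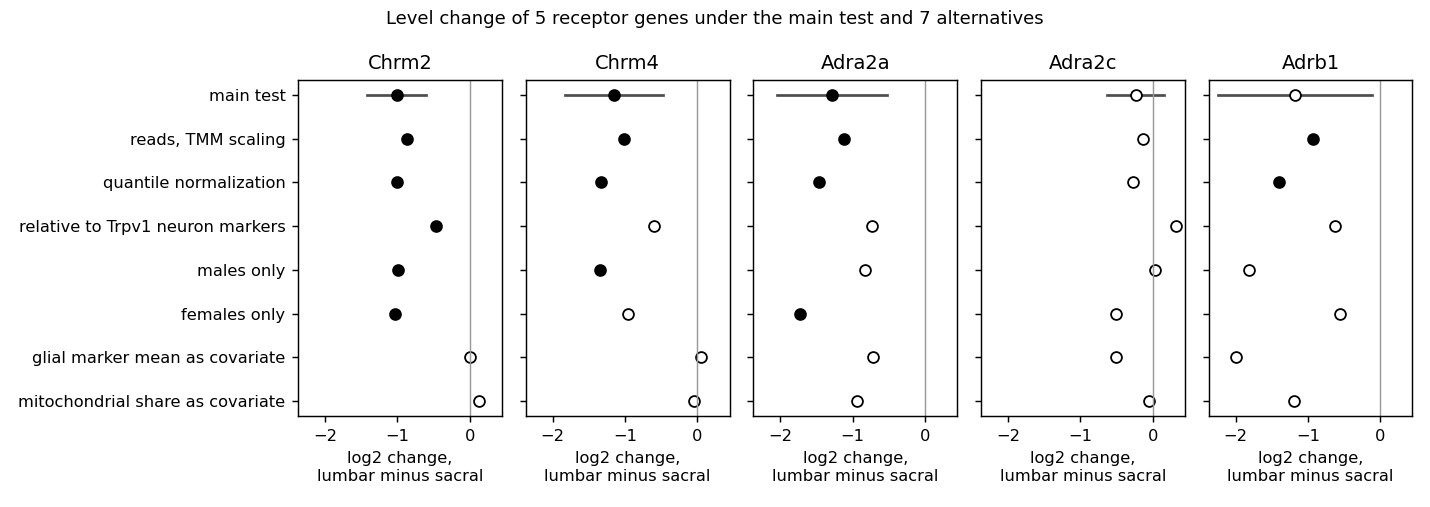
Fitted log2 change, lumbar minus sacral, of the 5 tested receptor genes under the main test, with its 95% interval as a bar, and under 7 alternatives; filled points passed an adjusted p of 0.05. Chrm2 lies between -1.04 and -0.46 in 6 of the 8 rows and at 0.00 and 0.13 with the covariates.

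The genes around the receptors, grouped in 10 lists by role, gave 52 tested genes of 64, all in 9 of the lists. Kcnj6, Kcnj9, Adcy8 and Rgs14 entered through their sacral groups only and Adcy4 through its lumbar groups only, which fixes the direction of Kcnj6, Adcy8 and Adcy4, over the filter in both groups of their level, and favours it for Kcnj9 and Rgs14, over it in 1 sacral group. Of the 47 genes that were over the filter at both levels, 29 (61.7%) were called higher in sacral DRG and 1 (2.13%) higher in lumbar DRG, beside 32.1% and 13.9% of all genes over the filter at both levels. Relative to the Trpv1 neuron markers 6 of the 47 (12.8%) were called higher in sacral and 15 (31.9%) higher in lumbar DRG, beside 2.97% and 62.9% of all genes over the filter at both levels. With the glial or the mitochondrial covariate 0 of the 52 were called in either direction, beside 68 and 17 of the 16304 genes tested. The shares of 32.1% and 13.9% also stand beside the count of each list below.

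On the ligand side, all 3 tested genes of acetylcholine handling were upregulated in sacral DRG: the choline transporter Slc5a7, acetylcholinesterase Ache (1.89 ± 0.45 lumbar and 3.23 ± 0.36 sacral log2 RPKM, SD, n = 10; change -1.34, SE 0.15) and butyrylcholinesterase Bche (change -0.98, SE 0.12), each of the latter in 10 of 10 donors. Chat, the enzyme that makes acetylcholine, had no value in any library. Of 5 tested genes of noradrenaline handling, 2 were upregulated in sacral DRG, beside 32.1% of all genes over the filter at both levels. The called genes were tyrosine hydroxylase Th, at 4.80 ± 0.69 and 6.19 ± 0.36 log2 RPKM with a change of -1.40 (SE 0.17), and monoamine oxidase Maob, with a change of -0.83 (SE 0.28). The call of Maob was lost without M5 (-0.60; limma, adjusted p = 0.063) and without F1 (-0.71; limma, adjusted p = 0.060). It was also lost in males only (-0.24; limma, adjusted p = 0.69) and relative to the Trpv1 neuron markers (-0.28; limma, adjusted p = 0.36). Dbh, which turns dopamine into noradrenaline, was empty in 10 of 20 libraries.

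Downstream of the Gi/o-coupled members, 4 of 5 Gi/o alpha subunits were upregulated in sacral DRG. Gnao1, the abundant neuronal subunit, stood at 6.85 ± 0.38 lumbar and 7.44 ± 0.26 sacral log2 RPKM with a change of -0.59 (SE 0.10), and Gnaz changed by -0.60 (SE 0.09). Relative to the Trpv1 neuron markers neither was called, at -0.04 (limma, adjusted p = 0.62) for Gnao1 and -0.05 (limma, adjusted p = 0.56) for Gnaz. Of the G protein gated potassium channels Kcnj3 was upregulated in sacral DRG at -0.64 (SE 0.16), and the low genes Kcnj9 and Kcnj6, tested through their sacral groups, stood at -1.52 (SE 0.44) and -0.94 (SE 0.33). The call of Kcnj6 was lost in 11 of 26 alternatives, among them leaving out any 1 of M3, M4, M5, F1, F3 and F5 (-0.91 to -0.82). Of the Gq group 2 of 6 were called higher in sacral DRG, near the 32.1% of all genes over the filter at both levels. Nothing is read from that count. The called genes were Plcb3 at -0.55 (SE 0.13) and Gnaq at -0.43 (SE 0.11). Kcnq5, a channel of the M-current, which muscarinic receptors close, was upregulated in sacral DRG at -0.60 (SE 0.14).

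Of the 11 genes of the Gs group 9 were over the filter at both levels, and of these 6 were called higher in sacral DRG and 1 higher in lumbar DRG. The stimulatory subunit Gnas changed by -0.31 (SE 0.07). The adenylyl cyclase Adcy6, named after its value was seen, stood at 0.83 ± 0.36 lumbar and 0.08 ± 0.36 sacral log2 RPKM (SD, n = 10), with a change of 0.75 (SE 0.16; limma, adjusted p = 0.00070), and was the higher in lumbar DRG in 10 of 10 donors. In males only the call of Adcy6 was lost (0.62; limma, adjusted p = 0.054). The low cyclase genes Adcy8, at -1.04 (SE 0.33), and Adcy4, at 1.11 (SE 0.41), were tested through 1 level only, and their calls were lost without F2 for Adcy8 and without any 1 of M1, M2, M3, M4 and F1 for Adcy4. Among receptor kinases and arrestins 4 of 6 were higher in sacral DRG, with Arrb1 at -0.52 (SE 0.12) and Grk6 at -0.52 (SE 0.14). Of 12 RGS proteins, which switch off G protein signals, 7 were called higher in sacral DRG, Rgs14 (-1.11, SE 0.41) through its sacral groups only, and among the others were Rgs9 at -1.22 (SE 0.18) and the very abundant Rgs4, at 7.87 ± 0.47 and 8.51 ± 0.26 log2 RPKM. The call of Rgs14 was lost in 10 of 26 alternatives, among them leaving out any 1 of M1, M3, M5 and F3 (-1.06 to -0.82). No member of the RGS list was called higher in lumbar DRG.

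Several of the pathway calls named above were lost under other settings. In females only the changes that missed the threshold were those of Plcb3 at -0.42 (limma, adjusted p = 0.065), Gnaq at -0.35, Gnas at -0.27, Kcnj3 at -0.49, Kcnq5 at -0.54, Rgs4 at -0.50, Kcnj9 at -1.81, Kcnj6 at -0.43, Adcy8 at -0.26, Rgs14 at -0.81 and Adcy4 at 1.58. In males only Grk6 missed it at -0.59 (limma, adjusted p = 0.075), as did Kcnj9 at -1.23, Kcnj6 at -1.45, Rgs14 at -1.40 and Adcy4 at 0.63, beside Maob and Adcy6. With quantile normalization Gnaq, at -0.20 (limma, adjusted p = 0.080), Gnas, at -0.038 (limma, adjusted p = 0.65), and Adcy4, at 0.90 (limma, adjusted p = 0.081), were not called. Relative to the Trpv1 neuron markers Kcnq5 stood at -0.046 (limma, adjusted p = 0.77), Kcnj3 at -0.086 (limma, adjusted p = 0.56) and Rgs4 at -0.081 (limma, adjusted p = 0.53), and Plcb3, Gnaq, Arrb1 and Grk6 were not called either, while Gnas was called higher in lumbar DRG at 0.24 (limma, adjusted p = 0.0018). Th, Ache, Bche and Rgs9 lost their calls with the glial and mitochondrial covariates only.

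**Figure D5:**
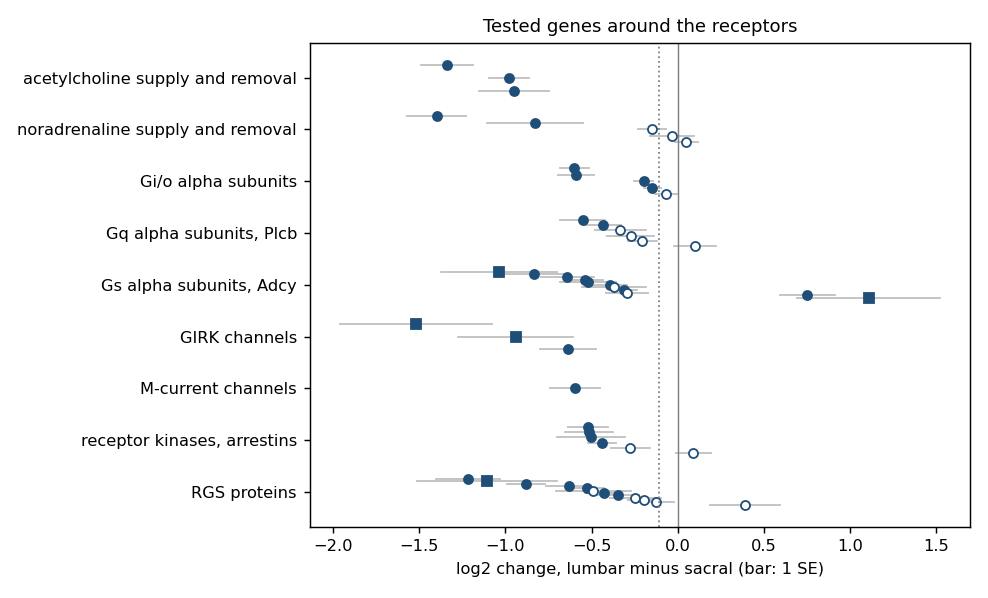
Fitted log2 change, lumbar minus sacral, with a bar of 1 SE for each tested gene in 9 lists around the receptors; filled points passed an adjusted p of 0.05, squares mark the 5 genes that entered through 1 level only, and the dotted line is the median of all tested genes at -0.11. Filled circles lie left of 0 (higher in sacral DRG) for 29 of 47 genes and right of it for 1, beside 32.1% and 13.9% of all genes over the filter at both levels.

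The genes most like each member across the 20 libraries were taken from the 15317 other tested genes with a value in every library. For Chrm2 they were Gabbr2 (Pearson r = 0.96), a subunit of the GABA-B receptor, Cntnap2 (0.95), an adhesion protein of axons, and Arfgef2 (0.95). For Chrm4 they were Nrg3 (0.88), Vps18 (0.87) and Mtmr9 (0.87). For Adra2a they were Odz2 (0.83), Gab2 (0.83) and Mir877 (0.82), for Adra2c Zfp319 (0.79), Slc43a2 (0.75) and AI606181 (0.75), and for Adrb1 Ankrd35 (0.85), Gm13140 (0.83) and Gm11850 (0.83). The r of Chrm2 with its nearest genes was thus the highest and that of Adra2c the lowest, over libraries in which the read number per gene also differs.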

How the data were processed

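RNA from sorted DRG cells of 10 donors was measured in 20 libraries, grouped by the sex and region in their labels. The deposited values are log2 RPKM, 1 column per library, with 0 columns left unused. The authors made them from reads that Subread placed at a single site of mm9, counted per Ensembl gene by featureCounts and scaled by TMM and voom (per the labels, limma 3.26.9 and edgeR 3.12.1). Every library has a median of 0.93, and 319449 cells are empty.

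Reads per gene were worked back from the steps of low values, of which 98.4% came out whole within 0.01 of a read. For Chrm1 this needed a length of 6487 bases in place of the annotated 6271. Libraries held 43909080 to 66411142 reads on genes. Counts cover counting error only.

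Levels and sexes were compared on the deposited log2 values with limma 3.58.1 (statmod 1.5.0, R 4.3.3): 4 group means, donor as a correlated block, a variance trend and Benjamini-Hochberg adjustment over all tested genes, called at 0.05. Genes needed a mean above -1 log2 RPKM in a group with at least 3 values. The donor block follows the study's own model and the shared animal numbers in the titles: deviations of same-donor libraries correlated at 0.18 on average (0.04 to 0.30, with 8 of 10 over 0.1) and those of other donors at -0.04. P-values measure the spread between these donors. On simulated data for the level comparison (15318 genes), 90.5% of 200 changes of 1 on the log2 scale and 100% of 200 changes of 2 were recovered. False calls made up 4.99% of the calls. The simulation took genes with a value in every library and changed few of them, where 45.6% were called in the data. Its recovery is an average over genes and does not hold for scattered low genes such as Adra2a or Adrb1.

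The members, the lists of pathway and marker genes and the tests were chosen with earlier results of these data known. Named genes are the 9 members, from each pathway list the called genes with the largest changes and the gene with the highest mean level, and the 3 genes most correlated with each member tested. Slc5a7, Chat, Dbh, Adcy6 and the markers were named after their values were seen. Some genes of the lists are not reported here. Figures and summaries used Python 3.11.15. Alternatives were other filters, pseudocounts, scalings and blocks, leaving out each donor, 1 sex at a time, and covariates.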

Additional observations from a re-analysis of the deposited data

Results flagged for a closer look

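Within 30 groups of 4 or 5 values of 1 member, sex and level, 4 held a library far from the others, where chance marks about 1 group in 20. The sacral Chrm2 value of donor M2 was 0.25 log2 RPKM, against 1.52 to 1.90 in the other male sacral libraries. The sacral Chrm1 value of donor M4 was -6.69, on 4 reads, against -3.07 to -1.97. The lumbar Adra2b value of donor F5 was -5.27, on 6 reads, against -2.32 to -1.90 in the other female lumbar libraries with a value. The lumbar library of F2, with 0 reads of Adra2b, was left out as empty, so F5 was not the lowest of its group. The lumbar Adrb1 value of donor M5 was -6.55, on 1 read, against -2.45 to -1.02.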

How the results depend on the processing

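All calls rest on 10 donors, and low read counts, down to 1 read for Adrb1, leave wide errors; depth limits Chrm3, Chrm5 and Adra2b, which were empty in some libraries. The 5 tested members kept their direction under 27 alternatives for Chrm2 and Adra2c and 26 for Chrm4, Adra2a and Adrb1, except where given here; the cause was not tested.

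With the glial covariate Chrm2 turned to 0.00275 and Chrm4 to 0.0517, and Adra2a at -0.72 was no longer called. With the mitochondrial share, Chrm2 turned to 0.13, and Chrm4 at -0.0398 and Adra2a at -0.94 were not called. Relative to the Trpv1 neuron markers Chrm4 (-0.60) and Adra2a (-0.73) were not called and Adra2c turned to 0.32. Chrm4 was not called in females only (-0.95) and Adra2a not in males only (-0.83), where Adra2c turned to 0.0372. On reads scaled by their total Adra2c was called at -0.55 and Adrb1 at -1.37; Adrb1 was also called with quantile normalization (-1.40), with TMM on reads (-0.94) and without M1 or F3, its range without 1 donor being -1.37 to -0.75.

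Members called higher in sacral DRG numbered 3 (30.3% of all tested genes were), and 1 with a filter at a mean of 0 (34.7%), 5 on total reads (58.0%), 0 with the glial (0.411%) or mitochondrial covariate (0.104%) and 1 relative to the neuron markers (3.02%); 3 of the 5 entered through sacral groups only, so nothing is read from these counts. Of the 52 tested pathway genes, the 5 that entered through 1 level included, 33 were higher in sacral DRG (30.3% of all tested genes were). There were 20 in males only (18.3%), 17 in females only (15.4%) and 6 relative to the neuron markers (3.02%). With the glial (0.411%) or mitochondrial covariate (0.104%) there were 0. Those higher in lumbar DRG numbered 2 (15.3% of all tested genes). There was 1 with the stricter filter (15.3%), without a filter on level alone (11.7%), without the replicate block (13.2%) and in females only (7.12%). There were 0 in males only (10.3%) and with the glial (0.00613%) or mitochondrial covariate (0%). Relative to the neuron markers there were 16 (62.4%), and without 1 donor 1 to 2 (13.3% to 15.5%). The replicate block changed no call of a member. All genes called numbered 7436, and 4637 in males only, 3636 in females only, 68 with the glial and 17 with the mitochondrial covariate.

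Some pathway genes turned. With the glial covariate Plcb3 was 0.24, Adcy4 -0.34, Gnas 0.0220 and Kcnj3 0.16. With the mitochondrial share Gnao1 was 0.0818, Plcb3 0.34, Gnaq 0.15, Adcy4 -0.19, Gnas 0.0860, Kcnj3 0.19 and Arrb1 0.12. Relative to the neuron markers Plcb3 was 0.000151, Gnaq 0.12, Gnas 0.24, Arrb1 0.0330 and Grk6 0.0370. That scale moves every gene with a value in all libraries by the same 0.55 toward lumbar DRG, so these turns single out no gene.

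Scaling moved the median change of all genes from -0.11 to 0.0059 with TMM on reads, -0.02 with quantile normalization and -0.43 on total reads. The share of calls higher in sacral DRG was 66.5%, and 50.4%, 52.8% and 86.9% under these. By reads in place of RPKM, Chrm2 made up 81.2% of the muscarinic sum in lumbar and 84.3% in sacral libraries and Chrm4 8.97% and 9.76%. Shares of reads rise with the exon bases counted, 6053 for Chrm2 against 2768 for Chrm4, 1949 for Chrm3 and 1746 for Chrm5.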
